A study of Mus musculus with 8 samples.

Results

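The expression of 37 genes of glycolysis and of the response to low oxygen was measured in mesenchymal stem/progenitor cells (MSPCs), the bone marrow stromal cells that produce CXCL12 and SCF for hematopoietic stem cells. The genes were taken by symbol from a count table of 52636 mouse genes, where the 37 symbols name 38 rows because Aldoa stands for 2 Ensembl genes. They comprise 7 genes of oxygen sensing, 3 glucose transporters, 15 genes of the glycolytic steps, 5 genes that handle pyruvate and lactate and 7 further targets of hypoxia. MSPCs came from 4 control mice (CTR, Flk2-cre+ Cxcr4fl/+) and 4 conditional knockout mice (cKO, Flk2-cre+ Cxcr4fl/fl), with 1 RNA library per mouse. All mice were of the C57BL/6 background, carried Flk2-cre and, as the sort for SCF-GFP implies, a GFP reporter at the Kitl locus, and the CTR mice also carried 1 floxed Cxcr4 allele. The study also uses the Kitl GFP allele to lower SCF. It reports that cKO mice with this allele had membrane-bound SCF and stem cell numbers back at normal levels. Whether stem cells were increased in the mice sequenced here is not stated. The labels give an age of 6 weeks, and the methods of the study give an older range for its mice in general. Flk2-cre deletes Cxcr4, the CXCL12 receptor, in multipotent hematopoietic progenitors and their progeny and not in MSPCs. The comparison addresses whether the stromal niche differs when hematopoietic cells lack CXCR4.

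Cells divert glucose to lactate through glycolysis, which yields ATP without oxygen. When oxygen is scarce, the prolyl hydroxylases encoded by the Egln genes no longer mark the HIF alpha subunits (Hif1a, Epas1) for degradation through the VHL ubiquitin ligase, and HIF alpha with its partner ARNT then activates glucose transporters, glycolytic enzymes and other targets. HIF alpha is controlled mainly as a protein, so that the RNA of Hif1a or Epas1 does not show HIF activity. The bone marrow is a tissue of low oxygen, and hematopoietic stem cells are known for their reliance on glycolysis.

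HIF binds DNA at a short element with the core ACGTG or GCGTG. Promoter sequences from RefSeq on GRCm38.p6, each 300 bases long with 250 bases before a transcription start and 50 after it, were matched to 32 of the 37 genes, and Slc2a3, Epas1, Ndrg1, Bnip3l and Slc2a4 were not matched. On either strand, ACGTG was present in 25 of the 48 promoters of these genes (52.1%), against 19.6% of all 32851 promoters and 25.2% of the 12580 promoters of genes tested here. GCGTG was present in 28 of the 48 (58.3%), against 32.4% of all promoters and 50.1% of those of tested genes. One or the other was present in 38 of the 48 (79.2%), against 43.8% of all promoters and 61.5% of those of tested genes. Counted by gene, where a gene can have several promoters, it was found for 29 of the 32. Neither was found in the promoters of Vhl, Gpi1 and Tpi1. CACGTG reads as ACGTG on both strands and was counted once. These matches describe the letters and do not show binding. For 7 genes whose values are given below and that stand for each role, 29 bases on the strand of the gene are printed. They hold the ACGTG nearest to any RefSeq start of the gene, among those whose 12 bases on each side also lie before that start. The core is in capitals, where CACGT is the core read from the opposite strand. The windows of Egln3 (chr12:54204087-54204115, minus strand), Hk2 (chr6:82774490-82774518, minus), Pgk1 (chrX:106186957-106186985, plus), Slc16a1 (chr3:104638453-104638481, plus) and Bnip3 (chr7:138909597-138909625, minus) lie before the annotated gene. In the window of Slc2a1 (chr4:119108697-119108725, plus) the last 15 bases lie in its annotated first exon, and the window of Ldha (chr7:46845758-46845786, plus) lies in an intron of a longer annotated transcript.
Egln3: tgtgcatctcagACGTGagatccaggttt
Slc2a1: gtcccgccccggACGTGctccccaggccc
Hk2: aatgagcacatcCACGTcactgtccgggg
Pgk1: aaatggaagtagCACGTctcactagtctc
Ldha: cgtgggttcccgCACGTccgctgggctcc
Slc16a1: cggcgccgggtCACGTGgcgggaaggggg
Bnip3: cgcacgcgccgCACGTGccacacgctccc

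Total counts per library lay between 31047344 and 38216877. The 8 MSPC markers, among them Cxcl12 and Lepr, summed to between 51280 and 62820 CPM (library-scaled counts per 1e6 counts, TMM) in CTR and between 52030 and 64240 CPM in cKO. Defining markers of other cells were low, with 12 hematopoietic markers at 27.1 to 87.7 CPM in CTR and 49.5 to 94.0 CPM in cKO, 6 endothelial markers at 4.25 to 5.59 and 2.14 to 5.29 CPM, and 4 chondrocyte markers at 17.4 to 43.7 and 23.8 to 40.8 CPM. The 8 erythroid markers summed to 67.6 to 195 CPM in CTR and 148 to 277 CPM in cKO. The 5 osteoblast markers reached 7813 to 11590 CPM for CTR and 8414 to 13870 CPM for cKO, nearly all of it Ibsp, while Bglap stayed at or below 3.97 CPM. Each sample title carries a number whose meaning the labels do not give. The numbers lie between 67 and 86 for CTR1, CTR3, cKO1 and cKO3 and between 26 and 32 for the 4 others, so that each range holds 2 libraries of each genotype and differences are also given within each range.

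MSPCs of both genotypes expressed nearly the whole glycolytic pathway, and none of the genes that could be tested differed between genotypes past the threshold. A count above 0 in every library was found for 34 of the 37, which were tested among 14598 genes with the quasi-likelihood test of edgeR. After Benjamini-Hochberg adjustment over all tested genes, 0 of the 34 had an adjusted p under 0.05 (0% of all tested genes), and the adjusted p was 0.999 for each of them. At an unadjusted p under 0.05 there was 1, Slc2a4, against 4.43% of all tested genes. This count depended on single libraries, with 4 genes without CTR4 (Ldha, Ldhb, Slc16a1 and Slc2a4), 3 without cKO2 (Epas1, Ldhb and Slc2a4) and 2 without CTR2, CTR3, cKO1 or cKO3, against 3.75% to 4.94% of all genes in these fits. The count also moved with the model. It was 6 with the replicate number as a block (Hif1a, Ldhb, Pgk1, Slc16a1, Slc2a1 and Slc2a4), against 5.56% of all genes. It was 3 with limma-voom, against 4.58% of all genes. It was 2 with filterByExpr (3.58% of all genes) or upper quartile scaling (4.4%). DESeq2 also gave 2, with its Wald test (5.19% of all genes) and its likelihood ratio test with a term for title numbers (6.07%). Slc2a4 was among them in every fit. Of the 34, 13 had a higher and 21 a lower mean in cKO, with a median log2 fold change of -0.06 against 0.00 over all genes, and the single values ranged from -0.53 for Slc16a1 to 0.69 for Ankrd37. DESeq2's Wald test, which called 23 genes in the whole table, also called 0 of them. The 95% confidence interval of the log2 fold change lay within 1 on either side of 0 for 29 of the 34 genes, with a median half-width of 0.33, and the 5 others were Slc2a4, Slc16a1, Hk2, Pdk1 and Ankrd37. In bulk RNA, a change in the RNA of each cell and a change in the share of cells that express a gene cannot be told apart. The plot of genotype differences shows all 34 genes.

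**Figure D1:**
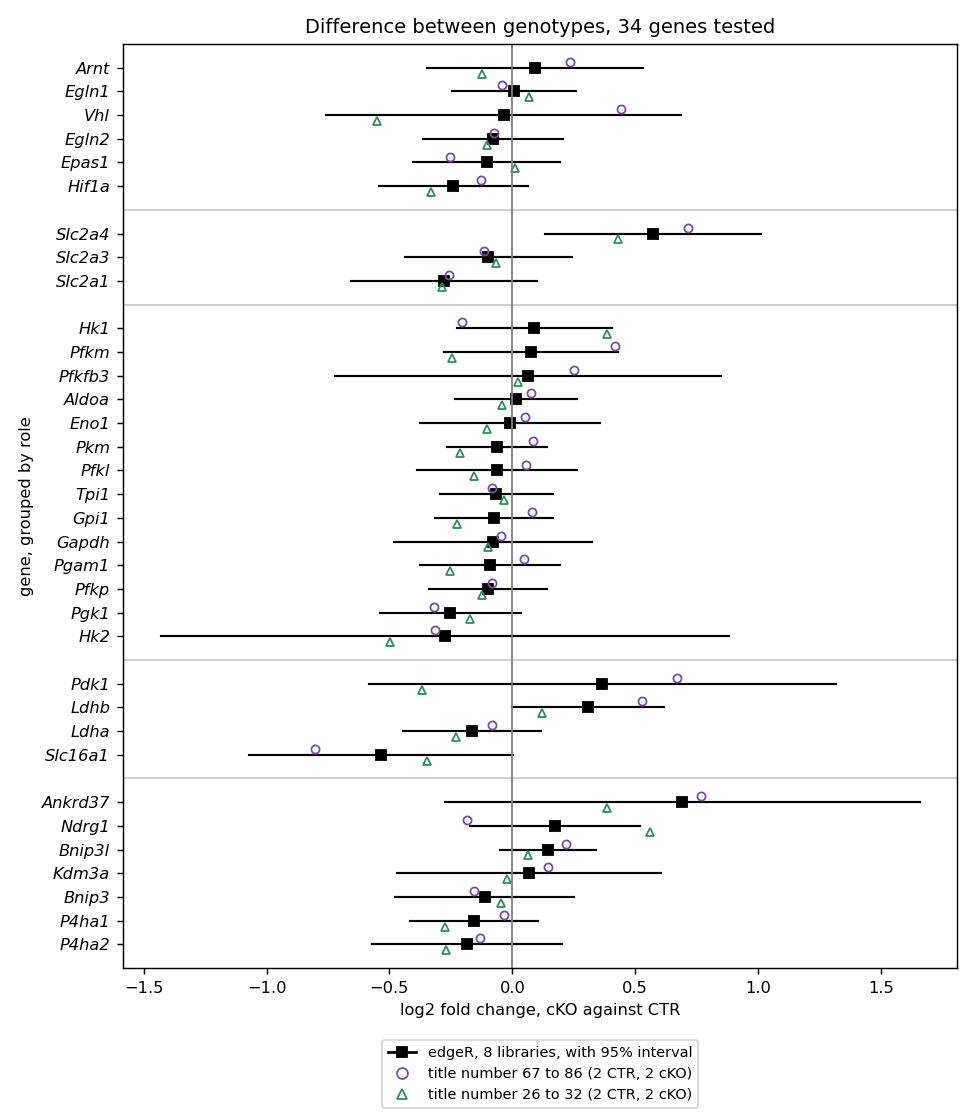
Log2 fold change of cKO against CTR (x axis) for the 34 tested genes (y axis, grouped by role), as fitted by edgeR over 8 libraries (squares, with 95% confidence intervals) and as the difference of mean log2 CPM within the libraries titled 67 to 86 (circles) or 26 to 32 (triangles). The interval leaves out 0 for Slc2a4, from 0.13 to 1.01, and touches it for Ldhb.

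The level of the 37 genes, given as CPM per kb of exon so that genes can be compared, spanned from 0 for Aldoc to 142 for Aldoa. Of the 34 tested genes, 27 lay above the median level of all tested genes, and 9 lay in the top 10%, namely Aldoa, Epas1, Ldha, Tpi1, Ldhb, Eno1, P4ha1, Bnip3l and Hif1a. The 3 genes that were not tested were Aldoc, Egln3 and Slc16a3. Known HIF targets stood at both ends of this order, with Ldha and P4ha1 near the top and Hk2, Pdk1, Ankrd37, Slc16a3 and Egln3 near the bottom. The plot of levels by library shows every gene.

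**Figure D2:**
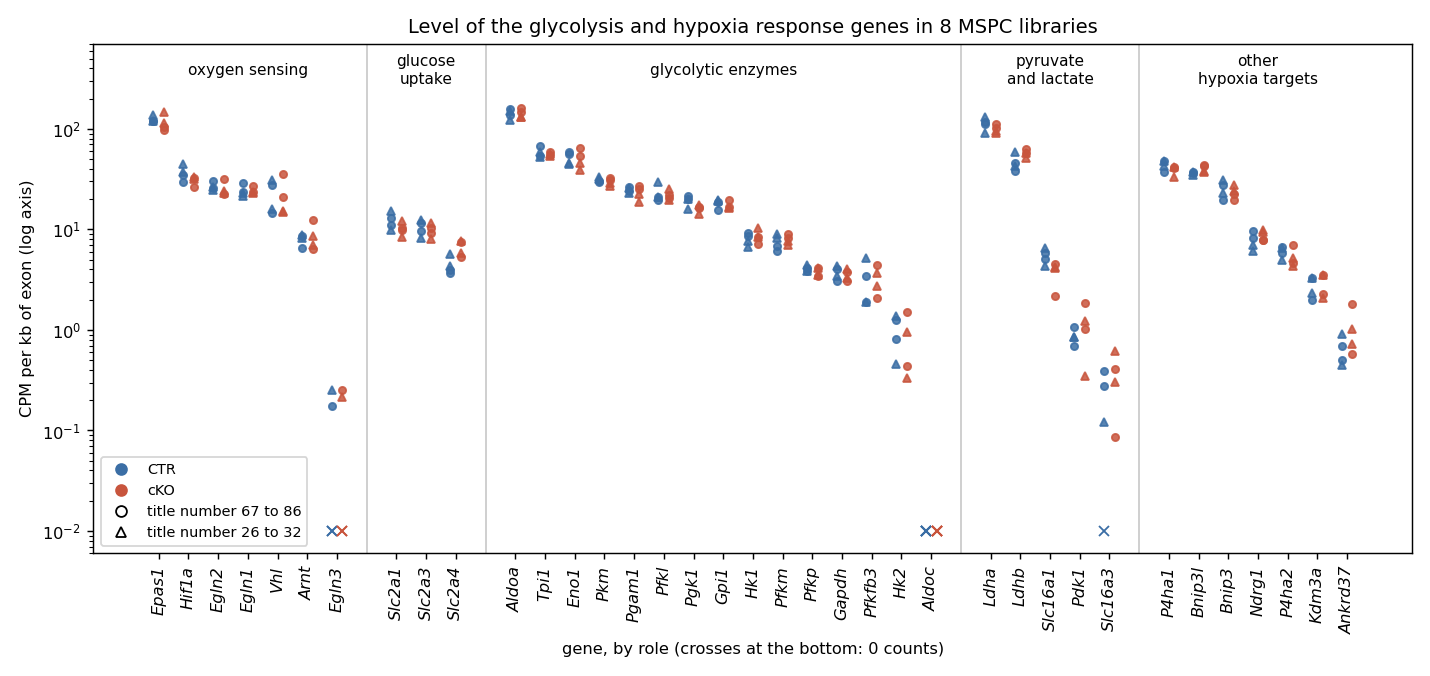
Level of each gene in CPM per kb of exon (log axis) in the 4 CTR (blue) and 4 cKO (red) libraries, grouped by role, with circles for titles 67 to 86, triangles for titles 26 to 32 and crosses for a count of 0. Aldoa, Epas1 and Ldha stand highest in their roles with means of 142, 120 and 107, and Aldoc has 0 counts in every library (the second row named Aldoa is not drawn).

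Among the genes of oxygen sensing, Epas1, which encodes HIF-2 alpha, was the most abundant. Its values were 672, 769.7, 666 and 667 CPM in CTR1 to CTR4 and 539, 821, 584 and 636 CPM in cKO1 to cKO4. CTR2 and cKO2 were the highest libraries of their genotypes, and the groups overlapped. Between genotypes it differed by -0.11 on the log2 scale (standard error, SE, 0.13, adjusted p = 0.999 in edgeR), with 0.01 for titles 26 to 32 and -0.25 for titles 67 to 86. Hif1a, which encodes HIF-1 alpha, had 204, 222, 175 and 266 CPM in CTR and 191, 198, 157 and 188 CPM in cKO. The lowest library was cKO3 and the highest CTR4, and 3 cKO libraries fell within the range of CTR. Hif1a showed a log2 fold change of -0.24 (SE 0.14, edgeR quasi-likelihood unadjusted p = 0.108), negative in both title ranges (-0.33 and -0.13), and it was between -0.34 and -0.13 with each library left out. An antisense RNA, Gm15283, covers 5.6% of the exon bases of Hif1a, and since strand-specific counting is not stated, their reads cannot be told apart there. Per kb of exon, Epas1 RNA was 3.58 ± 0.56 times that of Hif1a (SD, n = 8 libraries), from 2.65 to 4.37, and the ranges of their levels did not overlap.

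Arnt, the shared beta subunit, had a mean level of 8.32 CPM per kb, and Hif1a exceeded it in all 8 libraries by 4.26 ± 1.06 times (SD). The hydroxylase gene Egln1 (PHD2), the main oxygen sensor in most cells, had 84.2, 83.4, 103.7 and 77.5 CPM in CTR and 84.7, 83.2, 97.4 and 85.1 CPM in cKO. Egln1 differed by a log2 value of 0.01 with a 95% interval of -0.24 to 0.26, the narrowest among the oxygen-sensing genes, and it was between -0.048 and -0.010 without CTR1, CTR2, CTR4 or cKO3. Egln2 (PHD1) stood level with Egln1 per kb of exon, at 1.08 ± 0.18 times (SD), with 5 of 8 libraries higher for Egln2, although with the longest transcript as the length the ratio was 1.44 and above 1 in every library. Egln3 (PHD3), itself a gene that HIF induces, was barely detected, with a count of 0 in CTR1, CTR4, cKO3 and cKO4 and at most 22 counts (0.674 CPM) in the others. Vhl varied more than its neighbors, from 44.2 to 107 CPM, with high values in CTR1, CTR2 and cKO3. Its difference between genotypes had opposite signs in the title ranges, -0.55 for 26 to 32 and 0.44 for 67 to 86.

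The glucose transporters held the gene with the smallest unadjusted p of the 34. Slc2a4, which encodes the insulin-regulated transporter GLUT4 of muscle and fat, had 13.6, 19.9, 12.9 and 15.0 CPM in CTR and 18.4, 26.6, 25.8 and 20.4 CPM in cKO. All cKO values but that of cKO1 were above every CTR value, and cKO1 lay below CTR2. The log2 fold change of Slc2a4 was 0.57 (SE 0.20, unadjusted p = 0.016, adjusted p = 0.999 in edgeR), 0.43 for titles 26 to 32 and 0.72 for titles 67 to 86. It stayed between 0.49 and 0.71 with each library left out, and its adjusted p was at least 0.301 under every alternative. The 6 skeletal muscle markers had at most 10 counts each in every library and summed to at most 0.0621 CPM in CTR and 0.215 CPM in cKO. The fat gene Adipoq, counted here among the MSPC markers, was abundant. It had 2742, 1995, 3333 and 2491 CPM in CTR and 3983, 2581, 3557 and 2882 CPM in cKO. Whether Slc2a4 varies with it was not tested. Slc2a1 (GLUT1), the widespread basal transporter and a HIF target, had 38.8, 34.3, 46.1 and 54.1 CPM in CTR and 36.5, 29.2, 34.3 and 42.8 CPM in cKO. The groups overlapped, with the lowest value in cKO2 and the highest in CTR4. For Slc2a1 the log2 fold change was -0.28 (SE 0.17, edgeR quasi-likelihood unadjusted p = 0.131), close to equal in the title ranges at -0.29 and -0.26. Slc2a3 (GLUT3) had 58.3 to 89.0 CPM, and its level per kb overlapped that of Slc2a1 (ratio of Slc2a1 to Slc2a3 1.16 ± 0.39, SD, n = 8). Both stood above Slc2a4 on average, and Slc2a3 was above Slc2a4 in all 8 libraries. The sum of the 3 transporters was 134.1 ± 6.84 CPM (SD, n = 4) for CTR mice and 129 ± 7.30 CPM (SD, n = 4) for cKO mice.

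At the first step of glycolysis, Hk1, the constitutive hexokinase, had 79.4, 56.6, 73.8 and 64.8 CPM in CTR and 60.8, 71.6, 72.5 and 87.3 CPM in cKO. The inducible hexokinase Hk2 had 7.51, 8.22, 4.91 and 2.76 CPM in CTR and 9.04, 1.97, 2.61 and 5.70 CPM in cKO. High and low Hk2 libraries occurred in both genotypes, and Hk2 had the widest interval of all 34 genes, from -1.43 to 0.88 on the log2 scale. Per kb, Hk1 exceeded Hk2 in every library, by 12.4 times on average (SD 7.41, range 4.71 to 25.5), and by 22.9 times with the longest transcript as the length. Of the phosphofructokinases, which catalyze the committed step, the liver form Pfkl was the most abundant per kb, at 2.92 ± 0.57 times the muscle form Pfkm, which in turn was 1.99 ± 0.35 times the platelet form Pfkp (SD, n = 8), and the ranges did not overlap at either step. With the longest transcript as the length, Pfkl was 4.5 times Pfkm. Pfkl had 130.2, 199, 141 and 139.9 CPM in CTR and 136, 169.9, 146 and 132 CPM in cKO, where CTR2 and cKO2 were again the highest of their genotypes. Pfkp had 54.9, 59.0, 52.0 and 52.2 CPM in CTR and 45.7, 47.1, 55.7 and 55.1 CPM in cKO. The 95% intervals of these genes included 0 (Hk1 -0.23 to 0.41, Pfkl -0.39 to 0.26 and Pfkp -0.34 to 0.14), and the sign turned for Hk1 without cKO4 (-0.008) and for Pfkl without CTR2 (0.085). Pfkfb3, which makes the activator of phosphofructokinase, ranged from 14.3 to 39.2 CPM and was highest in CTR2 and cKO1.

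From the aldolase step on, several enzymes were among the most abundant genes of the pathway. Aldoa, the aldolase of most tissues, had 354.7 to 454 CPM over the CTR and 381 to 472 CPM over the cKO libraries, with a log2 fold change of 0.02 (95% interval -0.23 to 0.27). The brain form Aldoc had 0 counts in all 8 libraries, which allows at most 0.0969 CPM in the shallowest library (3 counts, counting error only). The second row named Aldoa held 0 to 17 counts and was not tested. Tpi1, Eno1, Pkm, Pgam1 and Gpi1 had mean levels of 57.1, 51.0, 30.5, 24.1 and 17.8 CPM per kb, and their log2 fold changes between genotypes lay between -0.09 and -0.01. Pgk1, which makes the first ATP of the pathway, had 45.6, 35.6, 47.8 and 45.4 CPM in CTR and 37.03, 32.2, 37.7 and 39.5 CPM in cKO. CTR1, CTR3 and CTR4 lay above every cKO library, and CTR2 lay among them. Pgk1 had a log2 fold change of -0.25 (SE 0.13, edgeR quasi-likelihood unadjusted p = 0.0776), -0.17 for titles 26 to 32 and -0.32 for titles 67 to 86. Gapdh had 12.7, 17.9, 16.7 and 14.3 CPM in CTR and 12.8, 13.6, 15.5 and 16.5 CPM in cKO, and per kb the RNA of Tpi1, the enzyme of the step before, was 15.9 ± 1.85 times as abundant (SD, n = 8). This level is uncertain, because transcripts of 198 other annotated genes, 190 of them pseudogenes, share at least 200 bases with Gapdh at 90% identity or more, and reads that fit several places may be lost or credited to a copy. The 188 of these pseudogenes in the table held 905 to 1302 counts per library, against 393 to 635 for Gapdh itself. Near-identical copies also exist for Pgk1 (Pgk1-rs7, 1255 bases at 100%) and Pgam1 (Pgam1-ps2, 765 bases at 100%). The same holds for Eno1 (Gm4735, 1302 bases at 99.6%) and Pkm (Gm6560, 1593 bases at 98.4%). The pseudogenes of each of these genes held at most 28 counts per library. Close copies also exist for Gpi1 (Gm1840, 873 bases at 98.6%) and Ldhb (Gm5514, 1002 bases at 98.0%). Bnip3l (Bnip3l-ps, 663 bases at 99.2%) and Bnip3 (Gm16439, 564 bases at 98.9%) have them as well. The pseudogenes of Gpi1, Ldhb, Bnip3l and Bnip3 held at most 60, 22, 55 and 45 counts per library. Reads lost between copies are not seen in these counts, so the levels of all these genes are uncertain too. The summed CPM of all glycolytic genes was 1559 ± 91.3 (SD, n = 4) for CTR mice and 1528 ± 112 (SD, n = 4) for cKO mice.

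At the end of the pathway, the lactate dehydrogenase gene Ldha, a HIF target whose product favors lactate, had 367, 435, 389 and 299.8 CPM in CTR and 373, 299.1, 341 and 318 CPM in cKO. The groups overlapped, and the log2 fold change was -0.16 (95% interval -0.44 to 0.12). Ldhb, whose product favors pyruvate, had 71.3, 67.2, 59.9 and 92.6 CPM in CTR and 90.5, 80.4, 98.1 and 91.2 CPM in cKO. Every cKO library exceeded CTR1, CTR2 and CTR3, and CTR4 lay among the cKO values. For Ldhb the log2 fold change was 0.31 (SE 0.14, edgeR quasi-likelihood unadjusted p = 0.0502), 0.12 for titles 26 to 32 and 0.53 for titles 67 to 86. Ldha exceeded Ldhb per kb in every library, by 2.14 ± 0.64 times (SD), with a lowest ratio of 1.54, and by 3.25 times with the longest transcript as the length.

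The lactate transporter gene Slc16a1 (MCT1) had 22.7, 28.8, 26.1 and 19.2 CPM in CTR and 9.59, 18.6, 20.2 and 18.3 CPM in cKO. CTR4 was below cKO3, and the value of cKO1 was the lowest of all. Slc16a1 had a log2 fold change of -0.53 (SE 0.24, edgeR quasi-likelihood unadjusted p = 0.0507), and without cKO1 it was -0.35. Slc16a3 (MCT4), the exporter that HIF induces in glycolytic cells, was low, with a count of 0 in CTR4 and at most 115 counts (3.28 CPM) elsewhere. Pdk1, which restrains the entry of pyruvate into the mitochondria and is a HIF target, had 8.28, 6.59, 5.44 and 6.56 CPM in CTR and 14.6, 9.52, 7.87 and 2.71 CPM in cKO. The highest and the lowest value both came from cKO, the differences within the title ranges had opposite signs (-0.37 and 0.67), and the log2 fold change of 0.37 turned to -0.01 without cKO1.

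Of the other hypoxia targets, Bnip3l, a mitophagy receptor, was the 1 gene whose genotypes did not overlap. It had 142, 134.1, 143 and 144 CPM in CTR and 163, 145, 169 and 146 CPM in cKO. The gap was small, since cKO2 and cKO4 lay within 2 CPM of CTR4, and the log2 fold change was 0.14 (SE 0.09, edgeR quasi-likelihood unadjusted p = 0.133). Among all tested genes, 1.34% had every cKO library above every CTR library and 1.29% the reverse, where the 34 genes had 1 and 0. Bnip3l is abundant in maturing red cells. The 8 erythroid markers summed to 208 and 277 CPM in cKO1 and cKO3, the libraries highest in Bnip3l, against 67.6 to 195 CPM in the other libraries. Among CTR libraries the order differed, since CTR4 had the lowest sum (67.6 CPM) and the highest Bnip3l (144 CPM). CTR1 had 195 CPM of these markers and 142 CPM of Bnip3l. The part of red cells in the difference was not tested. Its relative Bnip3 had 63.3, 70.6, 44.2 and 51.6 CPM in CTR and 50.6, 62.4, 44.6 and 54.9 CPM in cKO, overlapping throughout. An antisense RNA, Gm45507, covers 22.3% of the exon bases of Bnip3 and had 293 to 507 counts per library, so that the reads of the pair may be mixed. Ankrd37, a small target strongly induced by hypoxia in many cells, had 1.07, 1.41, 0.776 and 0.696 CPM in CTR and 2.82, 1.11, 0.892 and 1.56 CPM in cKO. Its log2 fold change of 0.69 had an SE of 0.43 and was 0.27 without cKO1, the highest library. The genes Lrp2bp and Ufsp2 overlap 22.7% and 3.7% of its exon bases on the opposite strand, which adds to the uncertainty of so low a gene.

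The collagen prolyl hydroxylase genes P4ha1 and P4ha2, which serve matrix production, had means of 41.6 and 5.63 CPM per kb, a ratio of 7.58 ± 1.47 (SD, n = 8) that was 3.78 with the longest transcript as the length. Their log2 fold changes were -0.16 and -0.18, with intervals of -0.41 to 0.10 and -0.57 to 0.20. Ndrg1, a stress-response gene, and the histone demethylase gene Kdm3a ranged from 40.2 to 65.4 and from 16.2 to 29.1 CPM and overlapped between genotypes. The sum of the 7 targets was 490.4 ± 12.9 CPM (SD, n = 4) for CTR mice and 486 ± 19.1 CPM (SD, n = 4) for cKO mice.

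**Figure D3:**
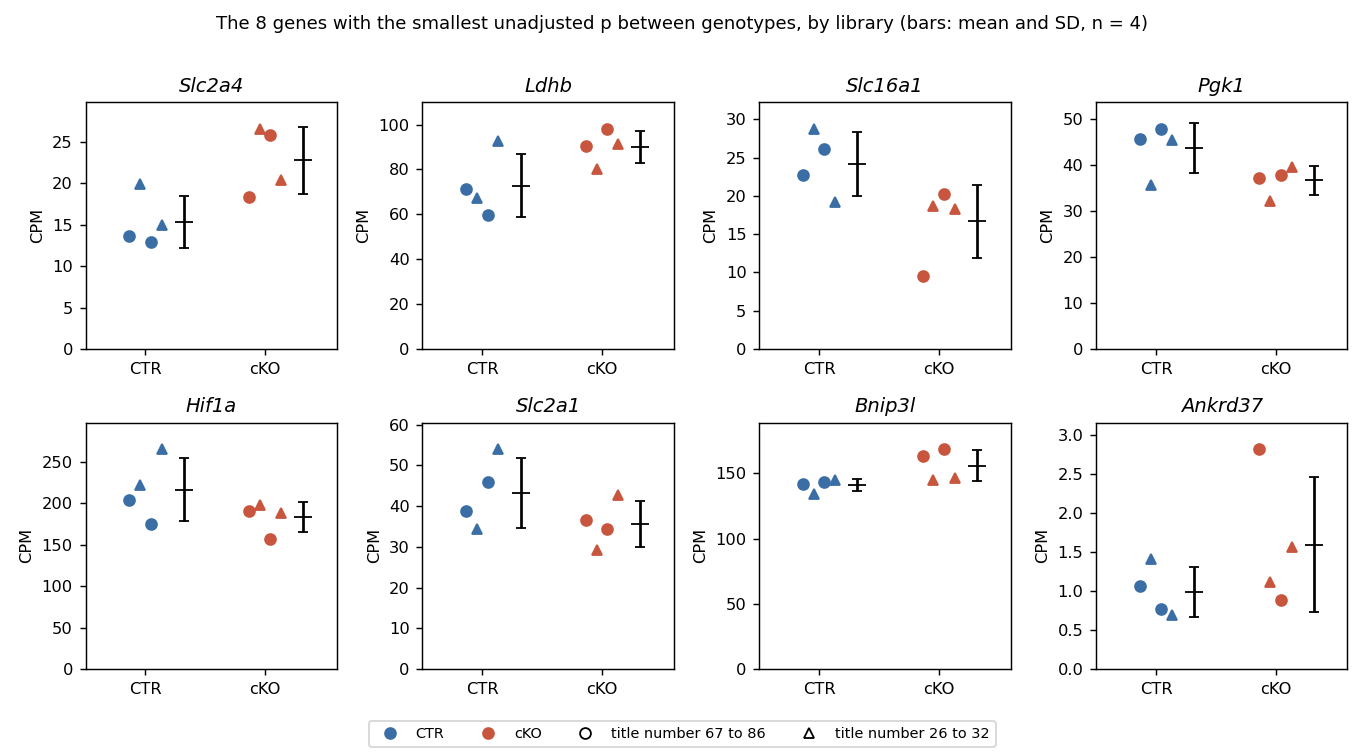
CPM in each library for the 8 genes with the smallest unadjusted p between genotypes, with the mean and SD of each genotype (n = 4) beside the points and the title number range as the shape. The genotypes are apart only for Bnip3l (134 to 144 CPM in CTR, 145 to 169 CPM in cKO).

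Between libraries of the same genotype, the genes varied nearly as much as other genes of like abundance. The standard deviation of log2 CPM within a genotype had a median of 0.21 over the 34 genes and of 0.30 over all tested genes, and among genes averaging 10 CPM or more it was 0.21 for 31 of the genes and 0.23 for all 9406. The ratio of the highest to the lowest library was under 1.5 for 14 of the 34 genes and over 2 for 7, and it was greatest for Pdk1 (5.38), Hk2 (4.59) and Ankrd37 (4.05). Pkm (1.23), Bnip3l (1.26) and Gpi1 (1.27) varied least. The mean deviation over all 34 genes, in log2 CPM from each gene's mean, ranged from -0.08 in CTR4 to 0.13 in CTR2. By role, the farthest values were cKO4 at -0.35 over the 4 tested genes of pyruvate and lactate and cKO1 at 0.27 over the 7 other hypoxia targets. The roles did not order the libraries alike, since CTR2 was the highest in oxygen sensing, glycolytic genes and pyruvate and lactate, cKO2 in glucose uptake and cKO1 in the other hypoxia targets.

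**Figure D4:**
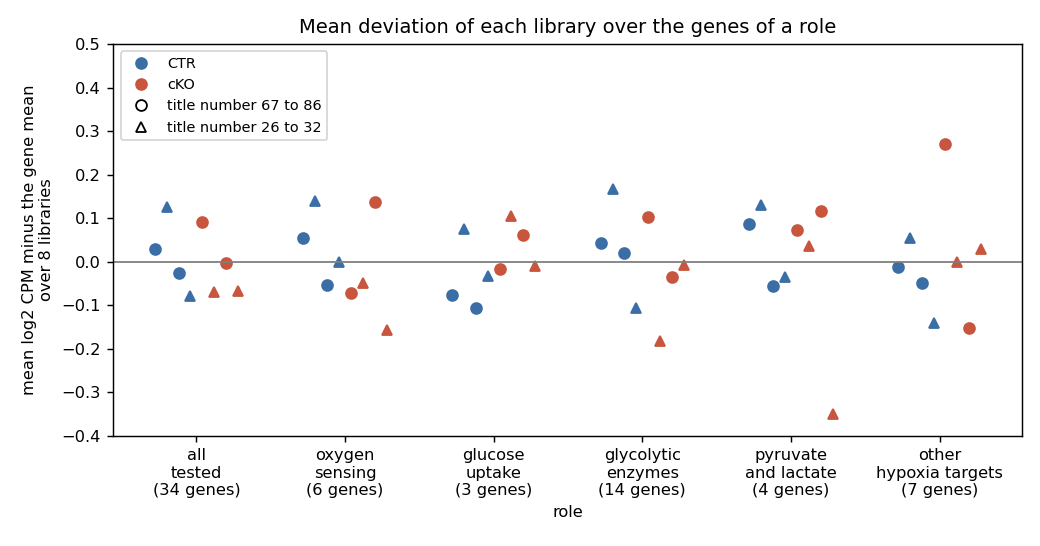
Mean of log2 CPM minus the gene's mean over 8 libraries (y axis) for the tested genes of each role (x axis), with 1 point per library, colored by genotype and shaped by title number range. CTR and cKO points overlap in every role, with the farthest point at -0.35 (cKO4, pyruvate and lactate).

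The libraries of both title number ranges were also compared, with genotype as a term, to show how much the genes varied beside genotype. In edgeR's quasi-likelihood test, 0 of the 34 genes passed an adjusted p under 0.05, against 2 of 14598 (0.0137%), and at an unadjusted p under 0.05 there were 2, against 11.6% of all tested genes. With 1 library left out there were 1 to 5, against 8.61% to 12.5% of all tested genes in these fits. The 5 (Aldoa, Eno1, Hif1a, Ldha and Vhl) came without CTR2, where the share of all genes was 9.88%. The 1 (Eno1) came without CTR3, cKO2 or cKO3. Eno1, the enolase of the pathway, was higher in titles 67 to 86, with 300.1, 315, 349.8 and 291 CPM in CTR1, CTR3, cKO1 and cKO3 and 239, 246, 209 and 244 CPM in CTR2, CTR4, cKO2 and cKO4. These ranges did not overlap, as was so for 6.87% of all tested genes, and no other gene of the 34 was separated by title range. The log2 difference of Eno1 was 0.42 (unadjusted p = 0.00166, adjusted p = 0.192 from edgeR), and DESeq2's likelihood ratio test, which called 338 genes in the whole table, called Eno1 alone among the 34. Hif1a was at -0.26 in the same direction of comparison (unadjusted p = 0.0417, edgeR), and its unadjusted p was over 0.05 without CTR1, CTR3, CTR4, cKO2 or cKO3. The genotype difference itself had the same sign in both ranges for 19 of the 34 genes and the opposite sign for 15. An interaction term for a difference between the ranges called 0 of the 14598 genes (0%) in edgeR's quasi-likelihood test, and 3 of the 34 had an unadjusted p under 0.05, against 3.44% of all tested genes. These were Ndrg1 (0.56 for titles 26 to 32 and -0.19 for titles 67 to 86, edgeR unadjusted p = 0.00807, adjusted p = 1), Hk1 (0.39 and -0.20, edgeR unadjusted p = 0.0334, adjusted p = 1) and Pfkm (-0.24 and 0.42, edgeR unadjusted p = 0.0347, adjusted p = 1).

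Genes of neighboring pathways were read from the same edgeR fit between genotypes. Of 20 other glycolytic genes, 12 were tested, 0 had an adjusted p under 0.05 and 0 an unadjusted p under 0.05, and 8 did not reach a count in every library. Bsg, the chaperone of the lactate transporters, stood far above the rest at 338 CPM per kb. Of 13 genes that set the fate of pyruvate, all were tested and 0 had an unadjusted p under 0.05. For 1 of them, Dld, every cKO library lay below every CTR library, as for 1.29% of all tested genes. Dld had 108.7 to 123.4 CPM in CTR and 96.05 to 106.6 CPM in cKO (log2 fold change -0.15, SE 0.09). Pdk2, Pdk3 and Pdk4 had mean levels of 24.6, 32.4 and 28.8 CPM per kb against 0.988 for Pdk1. The kinases of pyruvate dehydrogenase other than Pdk1 thus made up most of the RNA of this class. All 7 genes of the pentose phosphate pathway were tested with 0 at an unadjusted p under 0.05, and G6pdx, its first enzyme, had a log2 fold change of 0.03 (SE 0.09). Of 34 other hypoxia response genes, 30 were tested, again with 0 at an unadjusted p under 0.05, and the median log2 fold change was -0.04. Vegfa, the angiogenic HIF target, averaged 187 CPM over the CTR and 153 CPM over the cKO libraries (log2 fold change -0.29, SE 0.28), whereas Car9 and Car12 had at most 11 and 5 counts in any library.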

How the data were processed

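The 8 libraries were made from polyA RNA of double-sorted MSPCs. Paired reads were trimmed by the authors, aligned to GRCm38 (mm10) with HISAT2 and counted per gene with HTSeq. The versions of these tools are not given in the sources used here. The authors deposited raw counts, without normalization, as 1 column per library (0 columns were unused). Of 52636 gene identifiers, 52403 were matched to a symbol. Exon lengths and coordinates come from GENCODE M21 (GRCm38), which is not the release named in the methods, and promoters from RefSeq. Whether counting used strand is not stated. Besides Hif1a, Bnip3 and Ankrd37, exons of other genes on the opposite strand cover part of the exon bases of Gpi1 (Gm26762, 11.5%), Ndrg1 (Gm17035, 6.4%) and Pfkp (Pitrm1, 5.6%). On the same strand they cover part of those of Pkm (Gm49759, 15.3%) and Pfkm (Gm26513, 10.2%). Reads in these stretches may be mixed or lost as well.

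From the counts, libraries were scaled by TMM, and 14598 genes, those for which no library had a count of 0, were kept. Libraries held 31047344 to 38216877 counts. The quasi-likelihood test of edgeR 4.0.16 in R 4.3.3 compared cKO with CTR over all 8 libraries without covariates, with p-values adjusted by Benjamini-Hochberg over all kept genes and a threshold of 0.05. The title number range was tested with genotype as a term. Standard errors and 95% intervals come from this fit, and log2 CPM used a prior count of 2. Levels between genes are CPM per kb of the union of annotated exons. Genes sharing sequence were found with blastn (at least 200 bases at 90% identity). The fits were tested on simulated data. Alternatives were RLE and upper quartile scaling, filterByExpr, no filter, DESeq2 1.42.0, limma-voom (limma 3.58.1), the title number range as a term, the replicate number as a block, and each library left out in turn. Values in every library are given for 15 genes chosen by role and for the 8 with the smallest unadjusted p between genotypes, and other values by range. The genes, lists and tests were chosen with earlier results of these data known. Single-cell libraries of the study were not used here.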

Additional observations from a re-analysis of the deposited data

Results flagged for a closer look

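Within a genotype, 5 of the 68 groups of 4 libraries examined (34 genes in 2 genotypes) held a library that stood apart, with a gap to its nearest neighbor that is a larger share of the whole range of the group than Dixon's 95% criterion for 4 samples allows. Chance flags about 1 in 20 groups, or 3.4 of 68. In CTR, Gpi1 was low in CTR1 (gap 0.875 of the range, 99.7 CPM against 122 to 126 CPM in the others), and Epas1 was high in CTR2 (0.944, 769.7 CPM against 666 to 672 CPM). In cKO, Egln1 was high in cKO3 (0.86, 97.4 CPM against 83.2 to 85.1 CPM), P4ha1 was low in cKO2 (0.892, 136.5 CPM against 168 to 173 CPM), and Slc16a1 was low in cKO1 (0.866, 9.59 CPM against 18.3 to 20.2 CPM). The 5 flags fall on 5 different libraries.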

How the results depend on the processing

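The count of the 34 genes called between genotypes was 0 under every alternative, and over the alternatives of the 18 tested genes named by role or by p the lowest adjusted p was 0.301 (Slc2a4, likelihood ratio test of DESeq2 with a term for title numbers). Of 306 alternative log2 fold changes of these genes, 299 kept their sign. The 7 that turned came from leaving out 1 library, in Egln1 (-0.048 to 0.096 over the libraries left out, turned without CTR1, CTR2, CTR4 or cKO3), Hk1 (-0.008 to 0.167, turned without cKO4), Pfkl (-0.145 to 0.085, turned without CTR2) and Pdk1 (-0.012 to 0.664, turned without cKO1, from 0.366 with all libraries). Over all tested genes, the 0 called in the main test became 23 with DESeq2's Wald test, 42 with its likelihood ratio test and a term for title numbers, 1 with filterByExpr and 1 with no filter, and the cause was not tested. Between title number ranges, DESeq2's likelihood ratio test called 1 of the 34 genes (Eno1), and 0 were called under the other alternatives. Replicate numbers are shared by the genotypes, but the deviations of same-numbered libraries correlated at 0.131, 0.176, 0.0844 and 0.0572, so that the numbers were not taken to pair them, and a fit with the replicate block called 0 genes in all, with 6 of the 34 at an unadjusted p under 0.05 (5.56% of all tested genes). With the longest transcript in place of all exons as the length, 26 levels per kb moved beyond the SD over libraries, by up to 2.65 times, so that the order of neighboring genes depends on this choice. The ratio of Slc2a1 to Slc2a3 was then 1.08. The mean of 4 mice limits the precision to intervals of 0.20 to 1.16 on either side of a log2 fold change.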

Other observations

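Among the 30 tested genes of the other hypoxia response list, 5 had an unadjusted p under 0.05 between title number ranges in edgeR's quasi-likelihood test with genotype as a term, against 11.6% of all tested genes, and 0 had an adjusted p under 0.05. Fam162a, a mitochondrial protein gene and HIF target (log2 difference 0.44, unadjusted p = 0.00194), Lox, which cross-links collagen (0.48, unadjusted p = 0.00745), and Elob and Rbx1, partners of VHL in its ubiquitin ligase (0.33 and 0.23), had higher means in titles 67 to 86. Ddit4, an inhibitor of mTORC1 induced by stress, had a lower mean (-1.13, unadjusted p = 0.0317, edgeR).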
